A study of Homo sapiens with 36 samples.

Results

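Described here are 10 keratin genes, out of 66366 named genes, in 4 human lung cancer cell lines. The genes are KRT4, KRT13, KRT15, KRT6A, KRT7, KRT8, KRT18, KRT19, KRT80 and KRT81. They were chosen by their names together with measured values of these same libraries, namely the level of epithelial keratins in each line and the change of KRT4 with the anti-EGFR aptamer MinE07. The levels by line and the changes with MinE07 are therefore given as a description of the 10 genes. For the MinE07 comparisons it is stated which members were among the genes called, with no p-value, and nothing is read from those calls. All 10 were found in all 36 libraries, and 7 or 8 of them passed the level filter in each line (a mean of at least 1 FPKM, fragments per kilobase of transcript and per mapped fragments of the library, over the line's 9 libraries). KRT13 and KRT6A did not pass it in any line, KRT81 did not pass it in H3255, KRT15 did not pass it in A549 and KRT4 did not pass it in H1975.

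RNA-seq was done on H3255 cells (EGFR L858R), H1975 cells (EGFR L858R and T790M), H820 cells (an EGFR exon 19 deletion and T790M) and A549 cells (wild-type EGFR). Each is an established line of non-small cell lung cancer. Cells received MinE07, an aptamer directed at EGFR (aptamers are short nucleic acids whose fold binds a protein), or C36, a control aptamer in a lengthened form, both at 3 µM, or the vehicle of DPBS and Mg2+, and RNA was taken at 24 h. Every group had 3 libraries, said to come from independent experiments. All cells were treated in medium with 1% serum. A549 had DMEM where H3255, H1975 and H820 had RPMI, so medium and line cannot be told apart for A549. Each genotype is represented by 1 line, so that genotype and line cannot be told apart either.

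Keratins are the intermediate filament proteins of epithelial cells. A filament needs a type I (acidic) and a type II (neutral to basic) partner, and cell types differ in the pairs they make. Simple and glandular epithelia, lung included, make KRT8 with KRT18, joined by KRT7 and KRT19. The suprabasal layers of stratified mucosa, such as the oesophagus, make KRT4 with KRT13, while KRT15 belongs to basal cells, KRT6A to wounded or activated epithelium and KRT81 to hair. EGFR is a growth factor receptor with known effects on which keratins an epithelial cell makes.

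The summed FPKM of a library was between 362928 and 449811. The files hold no read counts, and relative depth, taken from the steps between low values, ran from 0.59 to 1.385 of the median library. It closed to within 0.0007 on the log2 scale in all libraries except A549 MinE07 replicate 3, where it was off by 0.156. The lowest sums were those of H820 MinE07 replicates 1 and 2. The lines' epithelial label was checked with markers. EPCAM and CDH1, surface proteins of epithelial cells, had medians of 212 and 126 FPKM in H3255 and of 5.36 and 34.0 FPKM in A549. NKX2-1, the lineage factor of lung epithelium, had a median of 0.0192 FPKM in A549 and of 20.2 to 73.7 FPKM in the other lines. Of the other lung epithelial markers, NAPSA (napsin A) had a median of 162 FPKM in H3255 and of 0.185 to 0.509 FPKM in the other lines, and SFTPB (surfactant protein B) one of 3.40 FPKM in H3255 and of at most 0.0508 FPKM elsewhere. The leukocyte markers PTPRC and CD3E stayed at or below 0.0603 FPKM in all libraries, whereas CD68, a lysosomal protein of macrophages, had medians of 80.7 and 60.7 FPKM in A549 and H1975 and of 1.94 FPKM in H3255, with 16.3 to 18.4 FPKM in the libraries of H820.

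KRT4 was the member with the largest difference between MinE07 and C36, and its start is shown for orientation. The gene lies on the minus strand of chromosome 12 (chr12:52806549-52814551, GRCh38, GENCODE 29), inside the type II keratin cluster, with KRT3 and KRT79 as neighbours. RefSeq (GRCh38.p14) places its start at position 52814116, which is 435 bases inside the GENCODE gene. The 30 bases below run from 42 to 13 bases before the RefSeq start (chr12:52814129-52814158, minus strand), with TATAA in capitals.
KRT4: ctgctccaggacaTATAAgagacgaaggct
The letters TATAA, searched on the gene's strand, begin 29 bases before the start, and 13.6% of 35116 RefSeq promoters hold them in the 250 bases before the start. The letters TGANTCA (the AP-1 motif) and GGGCGG (the GC box), searched on both strands, were not in the 250 bases of KRT4, and 6.57% and 42.6% of promoters hold them. KRT8 was the other member among the 10 with an entry in the RefSeq promoter table.

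KRT8 was the most abundant member in H3255, H820 and A549 and level with KRT7 in H1975, and the lines differed in which other keratins stood beside it. These are levels in FPKM in the vehicle libraries, as mean ± SD with n = 3, and a difference between genes in FPKM is per length of transcript. In bulk RNA, fewer cells that make a gene and less RNA per cell cannot be told apart. The plot of all 10 genes in all libraries shows the pattern.

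**Figure D1:**
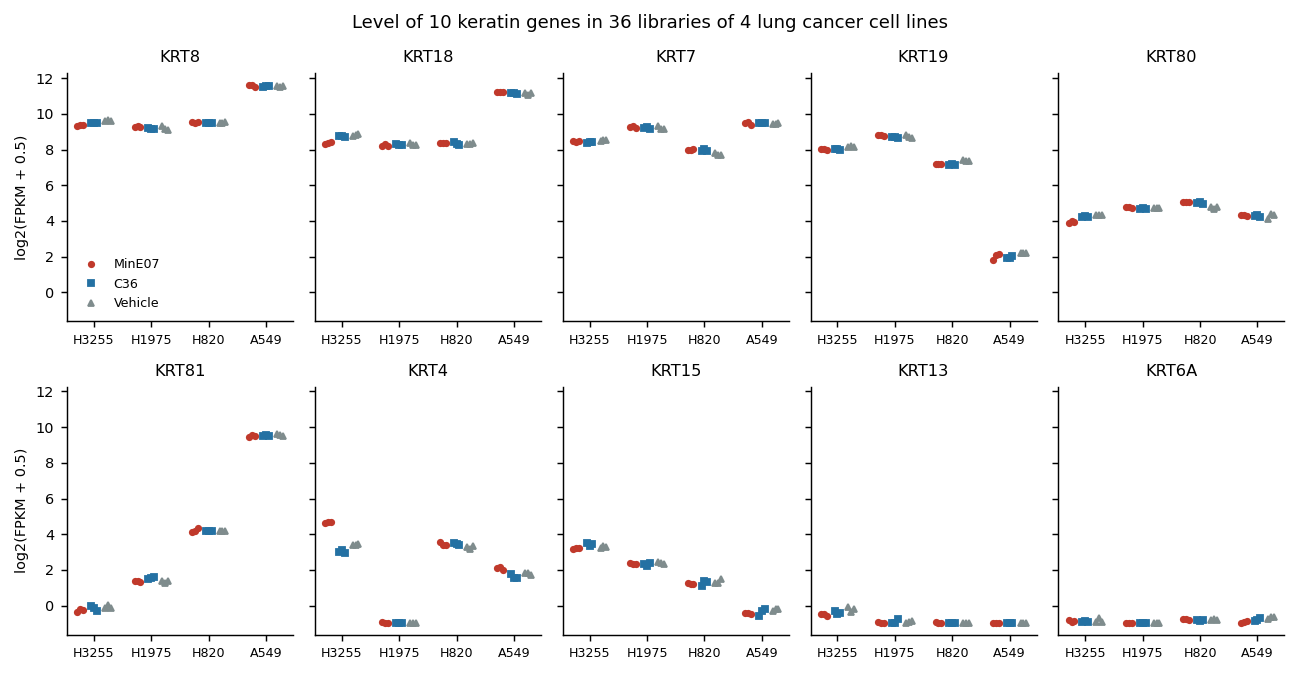
Level of each of the 10 keratins as log2(FPKM + 0.5) on the y axis, by cell line on the x axis, with MinE07 (red circles), C36 (blue squares) and vehicle (grey triangles), 3 libraries each. KRT8 and KRT18 are highest in A549, KRT19 is lowest there, KRT4 is near the floor in H1975 (at most 0.0219 FPKM), and KRT13 and KRT6A are near the floor in all 4 lines.

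KRT8, the type II keratin of simple epithelia, was at 2978 ± 55.9 FPKM in A549, 779 ± 12.2 in H3255, 728 ± 13.4 in H820 and 585 ± 50.8 in H1975. Its vehicle libraries did not overlap between any neighbours in that order, although H3255 and H820 differed by 1.07 fold. KRT18, its type I partner, was at 2261 ± 85.5 FPKM in A549, 450 ± 10.4 in H3255, 317 ± 6.98 in H820 and 314 ± 11.2 in H1975. H820 and H1975 overlapped for KRT18. The ratio of KRT8 to KRT18 in FPKM was 1.32 ± 0.0257 in A549, 1.73 ± 0.0403 in H3255, 1.86 ± 0.112 in H1975 and 2.29 ± 0.0122 in H820, so KRT8 was above KRT18 in all lines and by the smallest factor where both were highest.

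KRT7, the second type II keratin of simple epithelia, varied less, with 702 ± 17.3 FPKM in A549, 588 ± 35.9 in H1975, 364 ± 6.45 in H3255 and 214 ± 8.34 in H820. No vehicle libraries overlapped between neighbours in that order. KRT19, a type I keratin of ducts and simple epithelia, was at 421 ± 21.4 FPKM in H1975, 286 ± 9.48 in H3255 and 167 ± 1.49 in H820. In A549 it was at 4.14 ± 0.0410 FPKM, 40.4-fold below H820. A549 thus had KRT18 as nearly all of its type I keratin RNA, while in H1975 KRT19 was above KRT18.

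KRT81, a type II keratin of hair, had a wide range among the lines. It reached 755 ± 24.8 FPKM in A549, 17.7 ± 0.255 in H820, 2.02 ± 0.0831 in H1975 and 0.444 ± 0.0781 in H3255. No neighbours overlapped, and A549 was 42.6-fold above H820. KRT80, a type II keratin found in many epithelia, had the narrowest range of the tested members, with 26.5 ± 1.17 FPKM in H820, 26.2 ± 0.140 in H1975, 19.9 ± 0.148 in H3255 and 19.0 ± 1.77 in A549. H820 overlapped with H1975, and H3255 with A549.

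The keratins of stratified epithelia were low or near 0. KRT4 was at 10.1 ± 0.120 FPKM in H3255, 9.16 ± 0.575 in H820 and 2.99 ± 0.139 in A549, and its 9 libraries in H1975 lay between 0 and 0.0219 FPKM. KRT13, its usual type I partner, was highest in H3255 vehicle with 0.362 ± 0.0872 FPKM, and was listed at 0 in 8 of 9 H820 libraries and 6 of 9 A549 libraries. KRT4 was therefore present in 3 lines without KRT13 at a like level. KRT15, the type I keratin of basal cells, had 9.24 ± 0.463 FPKM in H3255. H1975 followed with 4.70 ± 0.185, H820 with 2.05 ± 0.244 and A549 with 0.347 ± 0.0404 FPKM, and no neighbours overlapped. KRT6A did not exceed 0.148 FPKM in any library, and its order among A549, H820 and H3255 was not resolved, since their libraries overlapped.

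Summed over the members, type II keratins were above type I keratins in all 36 libraries, by a ratio in FPKM between 1.51 and 2.26. The 10 genes held 1.56% to 1.72% of the summed FPKM in A549 and 0.358% to 0.491% in the other lines.

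**Figure D2:**
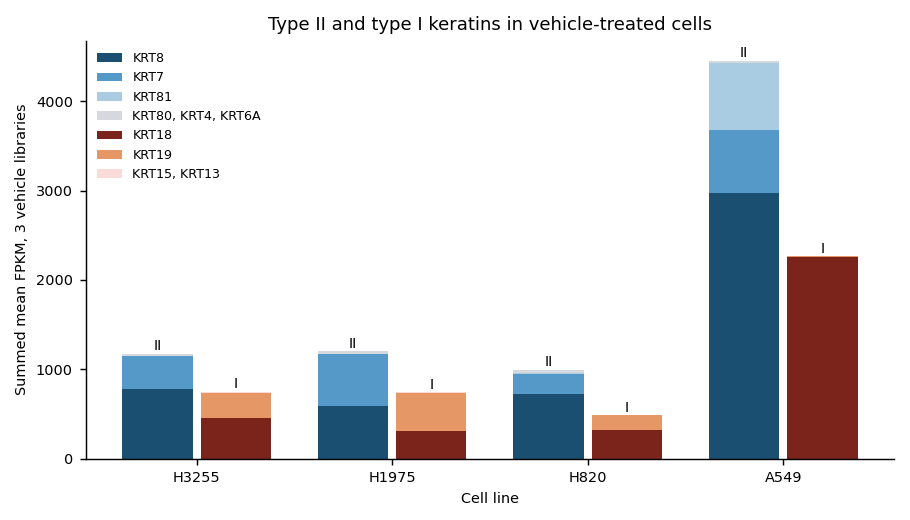
Mean FPKM over 3 vehicle libraries, stacked by gene, for the 6 type II members (II) and the 4 type I members (I) in each cell line. A549 has the tallest bars (4457 FPKM of type II and 2266 of type I) and the only visible KRT81 share of that size, while KRT19 is a visible part of type I in the other 3 lines.

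Of 44 other keratin genes, 37 had no group with a mean of 1 FPKM or more, among them the basal and suprabasal skin keratins KRT5, KRT14 and KRT1. KRT10, a type I keratin of the suprabasal skin, was between 6.50 and 14.2 FPKM in all libraries. KRT86, a hair keratin next to KRT81, was at 17.5 ± 1.19 FPKM in A549 vehicle, 7.44 ± 0.270 in H820, 0.682 ± 0.0465 in H1975 and 0.217 ± 0.0600 in H3255, the same order of lines as KRT81. KRT83, another hair keratin of the cluster, reached 2.19 FPKM in A549 MinE07 replicate 3 and was at most 0.142 FPKM outside A549. KRT6B and KRT6C, near copies of KRT6A, were at most 0.202 FPKM.

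The positions of the members bear on how far their values can be separated. KRT80 (chr12:52168996-52192000), KRT7 (chr12:52232520-52252186), KRT81 (chr12:52285913-52291534), KRT6A (chr12:52487174-52493257), KRT8 (chr12:52897187-52949954) and KRT18 (chr12:52948871-52952901) lie in the same cluster as KRT4. KRT13 (chr17:41500981-41505705), KRT15 (chr17:41513743-41522529) and KRT19 (chr17:41523617-41528308) lie in the type I cluster. KRT18 is a type I gene within the type II cluster, and its annotation overlaps that of KRT8 on the other strand by 1084 bases. The annotation of KRT7 overlaps that of KRT7-AS on the other strand by 2401 bases, and that of KRT86 on its own strand. All 5622 bases of KRT81 lie within the annotation of KRT86 on the other strand, and 29.4% of the 100-base windows of the KRT81 transcript also occur in KRT86. KRT6A shares 17.6% of its windows with KRT6C. The values of KRT81 and KRT6A are uncertain to that extent, since how the authors assigned shared reads, and whether they counted by strand, is not given in the sources used here. The other 8 members share none of their windows with another gene. The search used each member's longest coding transcript in the sense direction, so overlaps on the other strand are not covered by it. Even so, the 53 entries named as KRT8 pseudogenes summed to 2.61% to 4.25% of KRT8, and the 76 named as KRT18 pseudogenes to 1.17% to 6.40% of KRT18.

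The comparison of MinE07 with C36 asks what follows from the aptamer that is directed at EGFR beyond what an aptamer with another sequence does. In H3255, KRT4 was higher with MinE07 and 4 other members were lower. A gene was called at an adjusted p under 0.05 (limma, Benjamini-Hochberg, over all genes tested in the line). By that rule 5 of the 7 members above the filter were called, 1 higher and 4 lower. Among all 13429 genes tested 36.7% were called, 16.6% higher and 20.0% lower. Since the members were chosen with this contrast in view, nothing is read from their count.

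KRT4 had 24.0, 25.4 and 25.7 FPKM with MinE07, 7.43, 8.08 and 7.24 with C36 and 10.1, 10.0 and 10.3 with vehicle. The MinE07 libraries were above all others, and the C36 libraries were below all vehicle libraries. The log2 difference of FPKM + 0.5 between MinE07 and C36 was 1.66 ± 0.04 (SE), a factor of 3.16. Against vehicle it was 1.26 ± 0.04, a factor of 2.40.

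KRT18 had 318, 332 and 338 FPKM with MinE07, 427, 441 and 417 with C36 and 438, 452 and 459 with vehicle. All MinE07 libraries were below all others, and C36 and vehicle overlapped. The log2 difference was -0.38 ± 0.04 against C36 and -0.45 ± 0.04 against vehicle. KRT8, its partner, had 630, 651 and 674 FPKM with MinE07, 705, 714 and 714 with C36 and 770, 793 and 773 with vehicle. The 3 groups did not overlap, and the log2 differences of -0.13 ± 0.03 and -0.26 ± 0.03 were smaller in size than those of KRT18. The ratio of KRT8 to KRT18 was accordingly 1.98 ± 0.0201 with MinE07, against 1.66 ± 0.0483 with C36 and 1.73 ± 0.0403 with vehicle. The KRT18 pseudogene entries summed to 4.56% to 5.26% of KRT18 with MinE07, 1.75% to 2.84% with C36 and 1.69% to 6.13% with vehicle, and their part in the result was not tested.

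KRT80 had 14.1, 15.4 and 14.8 FPKM with MinE07, 18.5, 19.0 and 18.3 with C36 and 19.9, 20.0 and 19.7 with vehicle. The 3 groups did not overlap. The log2 difference was -0.32 ± 0.04 against C36 and -0.42 ± 0.04 against vehicle. KRT15 had 8.37, 8.97 and 8.78 FPKM with MinE07, 10.8, 9.71 and 10.5 with C36 and 8.74, 9.66 and 9.30 with vehicle. It was below C36 without overlap (log2 difference -0.23 ± 0.05) and overlapped with vehicle (-0.08 ± 0.05), with C36 the highest group.

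KRT7 and KRT19 were not called against C36 in H3255. KRT7 had 344 to 355 FPKM with MinE07 and 335 to 344 with C36, a log2 difference of 0.05 ± 0.03. KRT19 had 253 to 260 with MinE07 and 253 to 266 with C36, a difference of -0.03 ± 0.03. KRT19 was called against vehicle, where it had 279 to 296 FPKM (-0.15 ± 0.03). Against vehicle 5 of 7 members were called, 1 higher and 4 lower, beside 38.6% of all genes (21.4% higher, 17.2% lower). Both comparisons use the same MinE07 libraries. As a whole, the type I members summed to 586 to 600 FPKM with MinE07, 680 to 718 with C36 and 727 to 758 with vehicle, and type II to 1022 to 1070, 1067 to 1085 and 1157 to 1190.

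**Figure D3:**
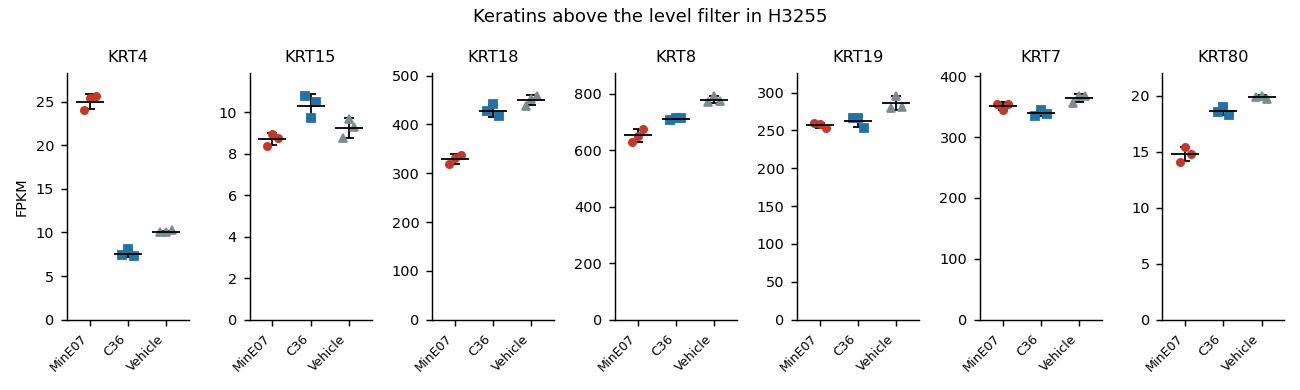
FPKM on the y axis, from 0, for the 7 members above the level filter in H3255, by treatment on the x axis. Points are libraries, the line is the mean and the bar the SD (n = 3). KRT4 is at 25.0 FPKM with MinE07 and 7.58 with C36, and KRT18 and KRT80 are lowest with MinE07.

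The members below the filter in H3255 were KRT13, KRT6A and KRT81. KRT13 had 0.170 to 0.216 FPKM with MinE07, 0.217 to 0.303 with C36 and 0.274 to 0.448 with vehicle, so that the usual partner of KRT4 was not higher where KRT4 was. KRT6A (0.0234 to 0.118 FPKM) and KRT81 (0.282 to 0.534 FPKM) overlapped between MinE07 and C36. Below the filter, KRT38 and KRT3 were noticed after their values were seen. KRT3, the neighbour of KRT4 and the type II keratin of the cornea, had 0.394, 0.481 and 0.381 FPKM with MinE07 and 0.182, 0.135 and 0.184 with C36. KRT38, a type I hair keratin, had 1.44, 1.45 and 1.19 FPKM with MinE07 and 0.975, 0.828 and 0.728 with C36. Neither overlapped between the groups. With no filter, the log2 difference was 0.46 ± 0.06 for KRT3 and 0.47 ± 0.09 for KRT38.

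In H1975, which carries T790M beside L858R, 1 of 7 members was called against C36, beside 19.9% of all 14183 genes tested (8.88% higher, 11.1% lower). It was KRT81, with 2.14, 2.09 and 1.99 FPKM with MinE07, 2.34, 2.42 and 2.57 with C36 and 2.07, 1.92 and 2.06 with vehicle. C36 was above both other groups without overlap, and the log2 difference of MinE07 to C36 was -0.19 ± 0.05. KRT86, which shares sequence with it, went the other way, with 0.786 to 0.847 FPKM with MinE07 and 0.564 to 0.750 with C36. KRT81 was not called without C36 replicate 2 or 3 or without MinE07 replicate 2 or 3, nor with no filter.

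None of the 4 members called lower in H3255 was called in H1975. With a filter of at least 5 FPKM in place of 1, KRT80 and KRT19 were called there, both higher. KRT18 had 296 to 312 FPKM with MinE07 and 306 to 320 with C36, with a log2 difference of -0.04 ± 0.04. KRT80 had 26.3 to 27.5 with MinE07 and 24.7 to 25.5 with C36 (0.09 ± 0.03), and KRT8 had 611 to 631 and 560 to 601 (0.10 ± 0.06). KRT19 had 433 to 458 and 397 to 416 (0.13 ± 0.04). The groups of KRT80, KRT8 and KRT19 did not overlap, with MinE07 above C36. Against vehicle no member was called in H1975 by limma, and none had an unadjusted p under 0.05, beside 23.7% of all genes called. Without vehicle replicate 1, KRT19 was called against both C36 and vehicle, and KRT8 against vehicle.

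In H820 no member of 8 was called between MinE07 and C36 by limma, none had an unadjusted p under 0.05, and 0.0364% of all 13753 genes tested were called. KRT4 had 11.4, 10.2 and 10.2 FPKM with MinE07 and 11.0, 10.6 and 9.96 with C36, which overlapped (log2 difference 0.01 ± 0.06). In A549, 0% of 13425 genes were called, 0 of 7 members among them, while 1455 genes and 1 member had an unadjusted p under 0.05. The fit of all 36 libraries called 1 member, KRT4, beside 230 of 14572 genes. KRT4 had 3.77, 3.92 and 3.43 FPKM with MinE07, 2.97, 2.46 and 2.40 with C36 and 3.03, 3.11 and 2.84 with vehicle in A549. The MinE07 libraries were above all others there too, with a log2 difference of 0.44 ± 0.08 to C36.

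MinE07 against vehicle gave 3 of 8 members called in H820, beside 3.02% of all genes (1.99% higher, 1.03% lower). KRT7 (0.25 ± 0.04) and KRT80 (0.31 ± 0.04) were higher and KRT19 (-0.21 ± 0.02) lower. After scaling by medians of ratios 52.8% of the genes called in this comparison were higher, in place of 66.0%. With both MinE07 libraries of low summed FPKM left out, 1 MinE07 library remained, and the differences were of like size (0.28 for KRT7, 0.32 for KRT80 and -0.20 for KRT19). Without vehicle replicate 2, KRT7 was not called. In A549, 0 of 7 members were called by limma, with 2 at an unadjusted p under 0.05, beside 0.216% of all genes called. The fit of all 36 libraries called 2, KRT4 and KRT19, beside 659 of 14572 genes.

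**Figure D4:**
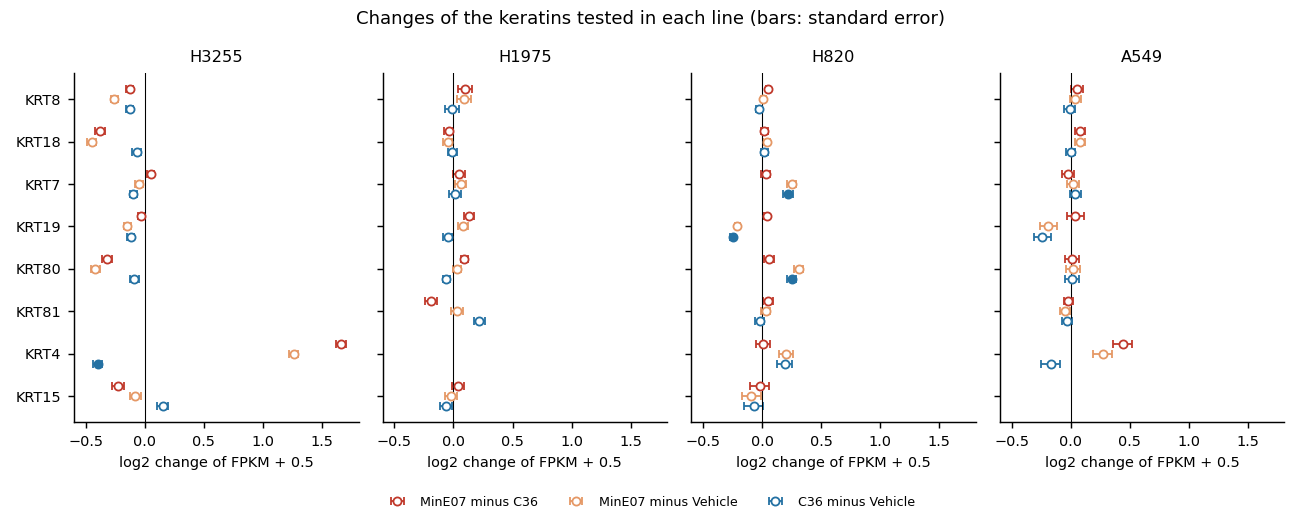
Log2 difference of FPKM + 0.5 on the x axis with its SE (bars) for each member tested, in the 4 cell lines, for MinE07 minus C36 (red), MinE07 minus vehicle (orange) and C36 minus vehicle (blue). Filled blue points had an adjusted p under 0.05 in limma, and the MinE07 points are drawn open throughout because those differences are a description. In H3255 the red and orange points of KRT4 lie at 1.66 and 1.26, and in H820 the orange and blue points of KRT7, KRT80 and KRT19 lie apart from 0.

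C36 against vehicle shows what an aptamer of another sequence does, and the rule that chose the members does not name this contrast. It shares the C36 and vehicle libraries with the contrasts that the rule used. Since the members were chosen with earlier results of these data known, its p-values are not shown to be free of the choice. In H820, KRT7 and KRT80 rose and KRT19 fell with C36. KRT19 had 138, 143 and 139 FPKM with C36, 169, 166 and 166 with vehicle and 143, 144 and 145 with MinE07. Both aptamers were below vehicle without overlap. The log2 change with C36 was -0.25 ± 0.02 (limma, adjusted p = 0.00147), and it was called in all 18 alternatives (adjusted p from 0.000981 to 0.0129).

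KRT80 had 32.2, 32.4 and 30.0 FPKM with C36, 26.8, 25.2 and 27.5 with vehicle and 32.4, 33.1 and 33.2 with MinE07, again with both aptamers apart from vehicle. Its change was 0.25 ± 0.04 (limma, adjusted p = 0.0114), and the call was lost without C36 replicate 1 (adjusted p = 0.0576) and with no filter (0.0759). KRT7 had 243, 263 and 242 FPKM with C36, 224, 210 and 209 with vehicle and 252, 250 and 261 with MinE07. Its change was 0.22 ± 0.04 (limma, adjusted p = 0.0205). This call was lost in 6 of 18 alternatives (adjusted p up to 0.117), among them those without C36 replicate 1 or 2 and without vehicle replicate 2 or 3. These were 3 of 8 members, beside 2.85% of all genes (1.56% higher, 1.29% lower). KRT4 was higher with C36 as well, with 9.96 to 11.0 FPKM against 8.50 to 9.57, but was not called (0.19 ± 0.06, adjusted p = 0.105).

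In H3255, KRT4 fell with C36 relative to vehicle, by 0.40 ± 0.04 on the log2 scale (limma, adjusted p = 0.0121). The same C36 libraries enter the MinE07 difference for which KRT4 was chosen, so this p is not independent of the choice. KRT4 was the single call among 7 members, beside 0.305% of all genes called (0.164% higher, 0.141% lower). An unadjusted p under 0.05 was found for 6 of the 7 members and for 2136 of all 13429 genes. After scaling by medians of ratios 24.5% of all calls in this comparison were higher, in place of 53.7%, and KRT8 (-0.16, adjusted p = 0.0326) was called beside KRT4. The call of KRT4 was lost without vehicle replicate 3 (adjusted p = 0.053) and with no filter (0.0742), and it held in the other 15 of 17 alternatives. For KRT7, KRT8, KRT19 and KRT80 the C36 libraries lay below all vehicle libraries. Their log2 differences were -0.10, -0.13, -0.12 and -0.09 (limma, adjusted p from 0.102 to 0.252). For KRT15 they lay above all vehicle libraries (0.15, limma, adjusted p = 0.189). How many of all genes separate in this way was not determined, so nothing is read from it.

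In H1975, 0 of 7 members were called by limma between C36 and vehicle, with 1 at an unadjusted p under 0.05, beside 0.233% of all genes. The fit of all 36 libraries called KRT81 (0.23, limma, adjusted p = 0.0388), beside 270 of 14572 genes. In A549, 0 of 7 were called, with 2 at an unadjusted p under 0.05, beside 6.00% of all genes. KRT19 was the lowest in adjusted p there, with 3.36, 3.35 and 3.62 FPKM with C36 against 4.18, 4.11 and 4.13 with vehicle. Its log2 difference of -0.24 ± 0.07 was not called (adjusted p = 0.0925). Leaving out MinE07 replicate 1 made it a call (adjusted p = 0.0337), and so did fitting all 36 libraries together (0.00113), which called KRT4 as well (0.0443). That joint fit called 2260 of 14572 genes in this comparison.

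Other genes of epithelial structure were read from 4 lists, which were chosen with earlier results of these data known. The first is the 44 other keratins. In H3255, H1975 and H820, 1, 3 and 2 of them passed the filter, and limma called none in any of the 3 comparisons, with at most 1 in a comparison at an unadjusted p under 0.05. In A549, 4 passed, and none was called with MinE07 against C36 or vehicle (2 and 1 at an unadjusted p under 0.05). KRT17, a type I keratin of activated epithelium, was at 1.44 ± 0.409 FPKM after C36, 1.07 ± 0.0563 after MinE07 and 0.639 ± 0.0764 in vehicle. It passed the filter through the aptamer libraries, all vehicle libraries being below 1 FPKM, so its call for C36 against vehicle (log2 difference 0.75 ± 0.13) supports nothing. The call was lost without C36 replicate 3.

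The second list holds 23 genes of desmosomes, hemidesmosomes and keratin linkers, the structures that anchor keratin filaments. In H3255, 14 were tested, and with MinE07 against C36 1 rose and 3 fell, beside 36.7% of all genes called. JUP (plakoglobin, of desmosomes) rose by 0.12 ± 0.03 on the log2 scale and was not called against vehicle (0.06 ± 0.03). ITGB4 (integrin beta 4, of hemidesmosomes) and DST (dystonin, which ties keratin to hemidesmosomes) fell by 0.25 and 0.22. The list's median was -0.06, beside -0.009 over all genes. In H1975, 17 were tested, of which 6 rose and 2 fell, beside 19.9% of all genes called, with a list median of 0.06 beside -0.007 over all genes. PPL (periplakin, a keratin linker) rose from 10.1 ± 0.0440 to 13.4 ± 0.194 FPKM (0.39 ± 0.03), ITGB4 rose from 10.8 ± 0.103 to 14.3 ± 0.436 FPKM (0.39 ± 0.03), and ITGA6, which pairs with ITGB4, fell from 18.2 ± 0.492 to 13.5 ± 0.201 FPKM (-0.41 ± 0.03). LAMB3, a laminin chain, fell by 0.14, and was not called against vehicle (-0.09 ± 0.04). The list's calls went from 4 to 2 in H3255 without MinE07 replicate 3. In H1975 they went from 8 to 4 without C36 replicate 1, C36 replicate 2 or MinE07 replicate 1, and to 5 without replicate 3 of C36 or MinE07. Against C36, ITGB4 and DST thus fell in H3255 and rose in H1975, each called in both lines, and the difference between lines was not tested. Against vehicle in H1975, ITGB4 was called higher as well (0.32 ± 0.03), while DST was not called (0.06 ± 0.06). DST was at 6.58 ± 0.160 FPKM after MinE07, 5.55 ± 0.189 after C36 and 6.29 ± 0.681 in vehicle. In H820 (17 tested) and A549 (15 tested) none was called in this comparison by limma, with 7 and 1 at an unadjusted p under 0.05. Of all genes, 1396 of 13753 and 1455 of 13425 had an unadjusted p under 0.05.

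With C36 against vehicle, 0 of 14 and 0 of 17 genes of that list were called in H3255 and H1975. An unadjusted p under 0.05 was found for 1 and 8 of them, beside 2136 of 13429 and 2032 of 14183 genes. In H820, EPPK1 (epiplakin, which binds keratin filaments) rose with C36 from 11.8 ± 0.194 to 13.7 ± 0.527 FPKM (0.20 ± 0.04, limma, adjusted p = 0.0317), 1 of 17 beside 2.85% of all genes called. In A549, 1 of 15 rose (LAMB3, 0.23 ± 0.04) and 3 fell, with ITGB4 the furthest, from 31.5 ± 2.75 to 22.9 ± 1.05 FPKM (-0.45 ± 0.06, limma, adjusted p = 0.00633), beside 6.00% of all genes called. The call of EPPK1 was lost without any one vehicle library, C36 replicate 1 or 2 or MinE07 replicate 2. The 4 calls in A549 became 1 without C36 replicate 3 and 2 without C36 replicate 2 or vehicle replicate 3.

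The third list holds 22 genes of squamous differentiation, the programme of stratified epithelia in which KRT4 and KRT13 are made. Few were expressed: 7 could be tested in H3255, 5 each in H1975 and A549, and 2 in H820. In H3255, 2 fell and 1 rose of the 7 with MinE07 against C36, beside 36.7% of all genes called. S100A9 (a subunit of calprotectin) fell from 899 ± 41.3 to 476 ± 49.7 FPKM (-0.92 ± 0.07, limma, adjusted p = 6.14e-06). SCEL (sciellin, a precursor of the cornified envelope) fell from 32.7 ± 0.178 to 19.3 ± 0.846 FPKM (-0.75 ± 0.04, limma, adjusted p = 9.80e-07). IVL (involucrin, another envelope precursor) rose from 4.23 ± 0.198 to 4.92 ± 0.371 FPKM (0.19 ± 0.06, limma, adjusted p = 0.0348). Against vehicle IVL was not called (0.13 ± 0.06). The list's median of 0.18 has the other sign from most of its calls. Leaving out each library gave 2 to 4 calls in H3255 against C36. In H1975, where 19.9% of all genes were called, 2 of 5 were. EMP1, an epithelial membrane protein, fell (-0.28 ± 0.03). SCEL was called higher against C36 (0.20 ± 0.06) and not against vehicle (-0.03 ± 0.06), with C36 the lowest group (2.47 ± 0.0646 FPKM, beside 3.01 ± 0.218 in vehicle). In A549, with C36 against vehicle, 2 of 5 were called, beside 6.00% of all genes. RHCG (an ammonium transporter of squamous mucosa) rose by 0.21 and EMP1 fell by 0.26. EMP1 had means of 0.882 FPKM after C36, 0.967 after MinE07 and 1.15 in vehicle. It reached the filter only through the vehicle libraries, so its call supports nothing. No gene of the list was called with MinE07 against C36 in A549 or H820 (1 and 0 at an unadjusted p under 0.05, limma). The 2 calls in H1975 became 1 without any one MinE07 or C36 library or vehicle replicate 3, and the 2 in A549 became 0 or 1 without any one of its 9 libraries.

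The fourth list holds 22 transcription factors of epithelial identity. In H3255, 16 of 20 tested were called with MinE07 against C36, 12 higher and 4 lower, with a list median of 0.18 beside -0.009 over all genes and 36.7% of all genes called. FOXA1, a pioneer factor of glandular epithelia, rose from 43.1 ± 1.14 to 59.2 ± 1.87 FPKM (0.45 ± 0.04). OVOL2, a zinc finger factor of the epithelial state, rose from 5.57 ± 0.168 to 7.48 ± 0.714 FPKM (0.39 ± 0.07), while its relative OVOL1 fell from 5.24 ± 0.237 to 3.54 ± 0.201 FPKM (-0.51 ± 0.05). FOXA2 fell from 11.6 ± 1.05 to 9.04 ± 0.255 FPKM (-0.34 ± 0.06). With each library left out in turn, 14 to 16 were called in H3255. In H1975, 6 of 15 rose and 1 fell, with a list median of 0.12 beside -0.007 over all genes and 19.9% of all genes called. Leaving out each library gave 5 to 8 calls in H1975. SOX2, a factor of airway basal cells, was at 1.40 ± 0.0348 FPKM after MinE07, 0.945 ± 0.0937 after C36 and 1.32 ± 0.0524 in vehicle. It was called higher against C36 (0.40 ± 0.06) but not against vehicle (0.06 ± 0.06). NKX2-1 rose against C36 from 17.2 ± 1.13 to 22.4 ± 0.610 FPKM (0.37 ± 0.05) and by 0.17 against vehicle, and BARX2, a homeobox factor, fell by 0.23 against C36. In H820 and A549, 0 of 15 and 0 of 8 were called in this comparison by limma, with 1 and 2 at an unadjusted p under 0.05.

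**Figure D5:**
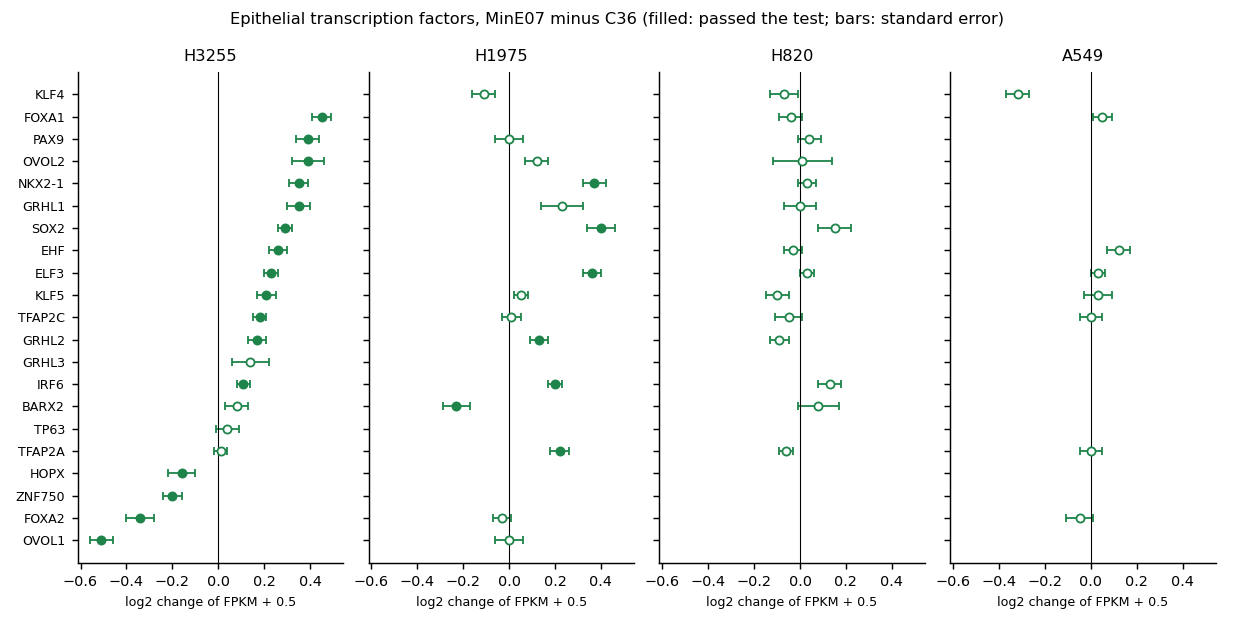
Log2 difference of FPKM + 0.5 between MinE07 and C36 on the x axis, with its SE, for each transcription factor of the list that was tested, in the 4 cell lines. Filled points had an adjusted p under 0.05 in limma: 16 in H3255, 7 in H1975 and 0 in H820 and A549.

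With C36 against vehicle, 3 of 15 factors fell in H820, beside 2.85% of all genes called and 1.29% called lower. Leaving out each library gave 2 to 3 calls. SOX2 went there from 7.95 ± 0.353 to 4.88 ± 0.202 FPKM (-0.65 ± 0.07, limma, adjusted p = 0.00289). In A549, 2 of 8 were called, beside 6.00% of all genes. KLF4 rose from 5.27 ± 0.0884 to 7.25 ± 0.464 FPKM (0.42 ± 0.05) and ELF3 fell by 0.13, and 1 of these 2 calls was lost without any one library other than vehicle replicate 2. In H3255 and H1975 none of 20 and 15 was called by limma within the line. The fit of all 36 libraries called 1 and 4 of the factors, beside 369 and 270 of 14572 genes. Within the line, an unadjusted p under 0.05 was found for 3 and 6 of the factors, beside 2136 of 13429 and 2032 of 14183 genes.

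Beside the keratins, the mesenchymal marker list was read in H3255. VIM (vimentin, the intermediate filament of mesenchymal cells) rose with MinE07 from 5.22 ± 0.0731 to 10.2 ± 0.810 FPKM against C36 (0.91 ± 0.05, limma, adjusted p = 6.95e-07). It was the single call among 3 tested of 5 genes, beside 36.7% of all genes called, and nothing is read from that count. FN1 (-0.05 ± 0.04) and COL1A1 (-0.12 ± 0.05), also tested, had differences below 0 and were not called. The list's median was -0.05, beside -0.009 over all genes. The list's summed level was 34.9 to 38.2 FPKM with MinE07, 31.2 to 33.4 with C36 and 32.6 to 33.4 with vehicle, CDH2 was at 0 in all C36 and vehicle libraries, and ZEB1 was at most 0.0266 FPKM. The other lines had VIM between 269 and 667 FPKM. The summed lung epithelial markers were 592 to 605 FPKM with MinE07, 567 to 574 with C36 and 567 to 585 with vehicle in H3255. Against C36, NKX2-1 (0.35 ± 0.04) and NAPSA (0.14 ± 0.04) were called higher. EPCAM (-0.05 ± 0.03), CDH1 (0.01 ± 0.03) and SFTPB (-0.08 ± 0.05) were not called. The part of these markers in the keratin differences was not tested.

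Across all 36 libraries, 3 genes had the pattern most like that of KRT4 by Pearson correlation of log2(FPKM + 0.5), among 14572 genes with a mean of at least 1 FPKM. They were FZD5, a Wnt receptor (r = 0.987), LBH, a transcription cofactor (r = 0.986), and FOXA1 (r = 0.984). The 36 points fall into 4 lines, so that r mostly follows the line, and it is given as a description. FOXA1 had 59.2, 43.1 and 42.7 FPKM as means of MinE07, C36 and vehicle in H3255, 24.5 to 25.7 in H820, 8.72 to 9.17 in A549 and at most 0.393 in H1975. LBH had 42.4, 24.6 and 29.8 FPKM in H3255, with vehicle between the aptamers as for KRT4. Of the members, KRT7 was furthest from KRT4 by this measure (r = -0.673) and the 6 others above the filter lay between -0.271 and 0.062.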

How the data were processed

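The members and lists were chosen with earlier results of these data known. The authors deposited FPKM per gene for 36 libraries. Per the submitters' processing notes, HISAT2 and Cuffdiff were used with GRCh38.p12 (hg38), and no versions were given. Per the labels' protocols, libraries were stranded, from poly-A RNA. FPKM is scaled by length and by mapped fragments, so it keeps no counts and a gene's value depends on all others. Entries without a name (1874) or with a repeated name (31) were left out of 68271.

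Values were analysed as log2(FPKM + 0.5) with limma 3.58.1 (R 4.3.3, trend and robust, two-sided) in the 9 libraries of a line, for genes with a mean of at least 1 FPKM, with Benjamini-Hochberg adjustment over all of them. Counts of all genes with an unadjusted p under 0.05 follow, in the order H3255, H1975, H820 and A549. They were 6133, 4817, 1396 and 1455 for MinE07 against C36, and 6323, 5133, 2570 and 1865 for MinE07 against vehicle. For C36 against vehicle they were 2136, 2032, 2527 and 3157. A fold is on this scale and understates changes of low genes. On data simulated with independent normal errors, as the fit assumes, 96.3% to 97.9% of genes changed by 1 on the log2 scale were recovered. Only changed genes that passed the filter were counted (189 to 198 per line), and false calls are not reported here. Smaller changes, such as most of those reported here, were not simulated, so their recovery is not known. Alternatives were pseudocounts of 0.1 and 1, no filter, a mean of at least 5, medians of ratios, all 36 libraries, a replicate block, further copies left out and each library left out. Leaving out both H820 MinE07 libraries of low summed FPKM was chosen after seeing the data. The replicate numbers were not taken to pair the libraries. Named are the 10 members and, of each list, up to 2 called genes per direction (MinE07 against C36) or 1 (C36 against vehicle), other keratins of at least 10 FPKM in a group, near copies, and the 3 genes most like KRT4. KRT3, KRT38 and DST were named after their values were seen, as were VIM and the markers' values. A gene counted among the junction genes is not reported here.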

Additional observations from a re-analysis of the deposited data

Results flagged for a closer look

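In some cases all libraries of a group lay above its comparison group in a line and below it in another. There were 12 such combinations of a member, a comparison and a pair of lines, 11 of them with H3255. How many of all genes differ in this way was not determined, so nothing is read from the count. None of these differences between lines was tested, and they are log2 differences of FPKM + 0.5. KRT4 with C36 against vehicle was 0.19 in H820 and -0.40 in H3255, which are 0.59 apart. KRT7 was 0.30 apart between H820 and H3255 for MinE07 against vehicle and 0.32 apart for C36 against vehicle. KRT80 was 0.72 apart between the same lines for MinE07 against vehicle (0.31 and -0.42) and 0.34 apart for C36 against vehicle, and 0.41 apart between H1975 and H3255 for MinE07 against C36. It was also 0.39 apart between H820 and H3255 for MinE07 against C36 and 0.30 apart between H820 and H1975 for C36 against vehicle. KRT18 was 0.46 apart between A549 and H3255 for MinE07 against C36 (0.08 and -0.38) and 0.52 apart for MinE07 against vehicle. KRT8 was 0.22 apart between H1975 and H3255 for MinE07 against C36 and 0.17 apart between H820 and H3255.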

How the results depend on the processing

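In H3255, 5 members were called against C36 in every setting tried and 5 or 6 against vehicle, and no called direction reversed. With no filter the count of called members was 0 in H3255 for C36 against vehicle, 0 in H1975 for MinE07 against C36 and 1 in H820 for C36 against vehicle. A mean of at least 5 FPKM gave 2 in H1975 for MinE07 against C36 (KRT19 and KRT80), and medians of ratios gave 2 in H3255 for C36 against vehicle. The fit of all 36 libraries gave 1 in H1975 for C36 against vehicle, and 1, 2 and 2 in A549 for MinE07 against C36, MinE07 against vehicle and C36 against vehicle. Of 14572 genes, that fit called 270 in this H1975 comparison and 230, 659 and 2260 in those of A549. Without both H820 MinE07 libraries of low sum, which leaves 1 MinE07 library (taken to vary like the other groups), the count was 0 for MinE07 against vehicle, with log2 differences of like size (0.28, 0.32 and -0.20 for KRT7, KRT80 and KRT19). Leaving out each library gave 0 to 1 in H3255 for C36 against vehicle, 0 to 2 in H1975 for either MinE07 comparison, 1 to 3 in H820 for C36 against vehicle and 0 to 1 in A549 for C36 against vehicle. The replicate block changed the call of KRT7 in H820 for C36 against vehicle (0.22, adjusted p = 0.0666 in limma). In H1975, for MinE07 against C36, it lost KRT81 and gained KRT19. It changed no other member's call, and same-numbered libraries did not deviate together (correlations from -0.16 to 0.25). The causes were not tested. Depth limits the members below 1 FPKM.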
